A study of Mus musculus with 1012 samples.

Results

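A set of 9 genes that control the assembly of actin filaments was followed through the cell states and techniques of the Live-seq data. They are 9 of the 30452 features of the count table and were listed by name, with no use of measured values: Gsn, Capg, Scin, Svil and Flii of the gelsolin family, and Tmsb4x, Tmsb10, Pfn1 and Cfl1, which bind actin monomers. The macrophage line was rich in Capg, nearly lacked Svil and had little Tmsb10. The fibroblast-like cells carried Svil and more Tmsb10, with more Gsn in the whole-cell batches that were compared. Tmsb4x was highest in primary adipose progenitors. No member passed the test for a response to lipopolysaccharide (LPS), where 1.23% of all genes did in whole cells and 0% in Live-seq. In the same test Tnf, whose promoter drives the study's reporter, was not called either. A miss therefore does not show that a gene did not respond. Gsn values varied widely between mock-treated macrophages of 1 batch.

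Actin cycles between single subunits and filaments, and these proteins set how fast it does so. Gelsolin (Gsn) severs filaments and caps their fast-growing end when calcium rises. CapG (Capg) caps without severing and is abundant in macrophages, adseverin (Scin) severs in secretory cells, supervillin (Svil) ties actin and myosin to membranes, and flightless I (Flii) joins gelsolin repeats to a leucine-rich repeat domain. The beta thymosins (Tmsb4x, Tmsb10) hold monomers in reserve, profilin (Pfn1) delivers them to growing ends, and cofilin (Cfl1) cuts and disassembles old filaments.

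Live-seq draws a little cytoplasm from a living cell through a hollow probe, while scRNA-seq lyses the whole cell. RAW_Mock cells and LPS-treated RAW_LPS cells were RAW-G9, a clonal subline of the mouse macrophage line RAW264.7 with an mCherry reporter under the Tnf promoter and a fluorescent RelA fusion, so mock and treated cells both carry these transgenes. The 12 Live-seq cells of batch 5Reseq, 11 treated and 1 mock-treated, were the wild-type line. IBA is an immortalized mouse brown preadipocyte line, and ASPC are primary mouse adipose stem and progenitor cells, taken before (ASPC_Pre) or after (ASPC_Post) the adipogenic cocktail of dexamethasone, IBMX, insulin and rosiglitazone. In a further experiment, IBA cells were lysed for scRNA-seq 1 h or 4 h after Live-seq sampling, beside unsampled cells labelled 0 h.

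The 1012 libraries comprised 296 Live-seq cells with a median of 506778.5 counts and 4035 genes, whole-cell scRNA-seq libraries with 467677 counts and 8531 genes, and 162 cells of the sampling experiment with 506266 counts and 8528 genes. Counts were summed over the cells of a batch, and the sum was the replicate (27 sums, each of at least 3 cells). Levels are in CPM, a gene's counts scaled to a sum of 1000000 counts. Macrophage markers made up 0.293% to 3.49% of the counts in RAW sums and at most 0.0607% elsewhere, and mesenchymal markers at least 0.261% in IBA and ASPC sums and at most 0.000563% in RAW sums. The 9 adipogenic markers together made up 0.0799% of the Live-seq and 0.118% of the scRNA-seq counts in ASPC_Post, above every ASPC_Pre sum of the same technique (at most 0.0598% and 0.081%). Adipoq, a marker of mature adipocytes, was at 0 in ASPC_Post under both techniques, and Cd36 in scRNA-seq. The same list reached 0.0828% in Live-seq IBA sums, and 0.382% in Live-seq and 0.168% in scRNA-seq RAW_LPS sums. It therefore does not set ASPC_Post apart from all other states. The labels do not say whether batches were separate cultures or animals. Batch was a block except between techniques, so p-values for states measure how state differences varied between batches, which may be technical. Fewer expressing cells and less RNA per cell cannot be told apart in a sum.

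The beta thymosins are small and alike, so their coding sequences are shown to let a reader judge whether a 75-base read could be given to the wrong one. Both run 135 bases from start to stop codon (GENCODE vM21, GRCm38, minus strand), Tmsb4x within X:167207501-167208036 and Tmsb10 within 6:72957618-72958012. Capitals mark the bases that differ.
Tmsb4x: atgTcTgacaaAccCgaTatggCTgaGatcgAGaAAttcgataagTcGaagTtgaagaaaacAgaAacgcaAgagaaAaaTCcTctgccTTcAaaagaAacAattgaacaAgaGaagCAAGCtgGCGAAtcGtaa
Tmsb10: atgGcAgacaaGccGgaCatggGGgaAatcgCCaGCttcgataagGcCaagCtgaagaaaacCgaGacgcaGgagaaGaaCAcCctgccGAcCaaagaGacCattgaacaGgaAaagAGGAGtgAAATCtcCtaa
The pair had the same base at 95 positions (70.4%) and differed at 40, and the longest run they shared was 10 bases, shorter than a read. Other sequences came closer to a member. Tmsb10 had 6 near copies (at least 95% identity over at least 75 bases), the longest in Gm9844 with 99.03% identity. These copies held 2414 counts in all cells against 65462 for Tmsb10, and matched 59.9% of its transcript. The study kept only uniquely mapped reads, so a read that fits Tmsb10 and a copy equally well is in neither count. The loss was not measured, and the level of Tmsb10 may be too low. Cfl1 matched 3 genes, Gm6180 at 98.8% identity with 1669 counts, the overlapping Snx32 with 2290 counts, and Arcn1 over 140 bases at 95.71% with 114365 counts, against 684516 for Cfl1. These matches covered 36.2% of the Cfl1 transcript. Scin matched Olr1 over 81 bases at 97.53%, and Olr1 held 15620 counts against 5 for Scin. Cfl1 and Flii also overlap a neighbouring gene, Snx32 for Cfl1 and 64 bases of Llgl1 for Flii, and the counting ignored strand. No near copy was found for Gsn, Capg, Svil, Flii, Tmsb4x or Pfn1.

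Gsn lies at 2:35256380-35307892 and Capg at 6:72544391-72562983 (GRCm38, plus strand), and the values below count reads over their exons, introns excluded. Levels of different genes were compared per kilobase of exon. On that scale the scRNA-seq RAW_Mock sums averaged 605.8 CPM per kb for Pfn1, 497.9 for Cfl1 and 452.6 for Capg. They averaged 325.4 CPM per kb for Tmsb4x, 99.49 for Gsn, 16.5 for Flii and 5.32 for Tmsb10. In ASPC_Pre, Tmsb4x averaged 1961 CPM per kb, above every other member. Profilin, cofilin and CapG thus headed the list in the macrophages and Tmsb4x in the progenitors.

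**Figure D1:**
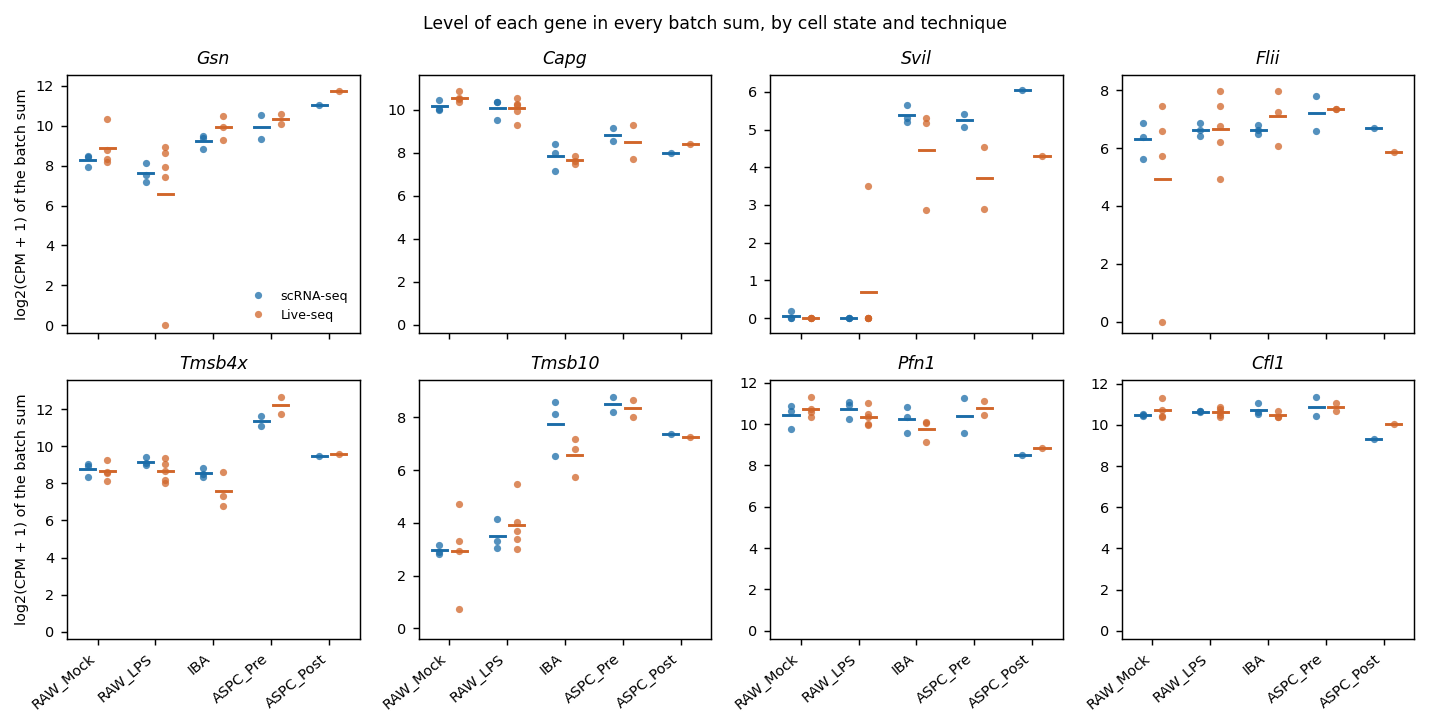
Level of 8 members as log2(CPM + 1) (vertical axis, a log scale) in every batch sum, by state (horizontal axis) for scRNA-seq (blue) and Live-seq (orange), with horizontal bars at the mean of the log2 values. Capg sits higher in RAW sums than in IBA and ASPC sums, Tmsb10 and Svil sit higher in IBA and ASPC sums, and Tmsb4x peaks in ASPC_Pre. Scin, with 5 counts in all, is not drawn.

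The first question was how the macrophage line differed from the fibroblast-like cells. RAW_Mock was compared with the average of IBA and ASPC_Pre. In scRNA-seq, Capg was higher and Gsn, Svil, Tmsb4x and Tmsb10 were lower in RAW_Mock, 5 of the 8 members tested, where 38% of all 13563 genes were called, 12.9% higher and 25% lower (an adjusted p under 0.05 and a log2 fold change beyond 1 in either direction, edgeR quasi-likelihood test with Benjamini-Hochberg adjustment). The members' median log2 fold change was -1.15, beside -0.21 over all genes. In Live-seq 1 of 8 was called higher and 1 lower, where 2.88% of all genes were called, 1.26% higher and 1.63% lower, a share that was 1.55%, 0.179% and 0.537% without batch 7, 8_8 and 9_4.

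Capg, which caps filaments, stood at 1004.7, 1401.4 and 1027.9 CPM in the scRNA-seq RAW_Mock sums of batches 8_8, 9_1 and scRNA. It was 255.35 and 341.4 CPM in the IBA sums of batches 8_8 and 9_1, lower in that of batch scRNA (4577 of 32233447 counts), and 373.2 and 557.7 CPM in ASPC_Pre. Every RAW_Mock sum lay above every IBA and ASPC_Pre sum. The difference was 1.69 ± 0.21 on the log2 scale (SE, adjusted p = 0.000299). In Live-seq the RAW_Mock sums of batches 6, 7, 8_8 and 9_4 were 1870, 1483.5, 1294.6 and 1437 CPM, and no IBA or ASPC_Pre sum exceeded 617.2 CPM. These groups did not overlap either, and the log2 difference was 2.07 ± 0.39 (adjusted p = 0.0131). The Live-seq call was lost without batch 7 (adjusted p = 0.0788), 8_8 (0.382) or 9_4 (0.146), with log2 differences of 2.11, 1.83 and 2.51.

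Gsn, the severing and capping protein, ran the other way. It measured 340.97, 243.3 and 357.99 CPM in the scRNA-seq RAW_Mock sums of batches 8_8, 9_1 and scRNA. It measured 455.5, 679.7 and 716.4 CPM in IBA and 643.9 and 1509.4 CPM in ASPC_Pre. The highest RAW_Mock sum was below the lowest of these IBA sums. Unsampled IBA cells of the sampling experiment, a batch outside the fit, measured 325.4 CPM, within the RAW_Mock range. The log2 difference in the fit was -1.65 ± 0.34 (adjusted p = 0.00413). Without batch 9_1 it was -0.96, short of the fold threshold, with an adjusted p of 0.0229. In Live-seq RAW_Mock ranged from 292.7 to 1275.2 CPM, IBA from 619.4 to 1459 CPM and ASPC_Pre from 1070.2 to 1526.5 CPM, so the groups overlapped. The log2 difference there was -1.47 ± 1.52 (adjusted p = 0.767), and with only the compared sums in the fit it was -1.95 and passed (adjusted p = 0.0276).

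Svil, the membrane-associated member, was near absent from RAW cells. In scRNA-seq 1 RAW_Mock cell (0.637%) held all 5 of its counts and no RAW_LPS cell had any, whereas 88.2% of IBA cells and 71.7% of ASPC_Pre cells did. Over the summed counts IBA was 540.6-fold (95% counting interval 231.4 to 1666.3) and ASPC_Pre 435.7-fold (186.1 to 1345) above RAW_Mock (edgeR adjusted p = 0.000188 for the comparison). In Live-seq no RAW_Mock cell had a Svil count, so that IBA was at least 333.04-fold and ASPC_Pre at least 206.6-fold higher, taking 3 counts over the group as the floor. The Live-seq comparison missed the threshold in edgeR (adjusted p = 0.14) and passed it in DESeq2 (adjusted p = 0.000195). Counts were not unique molecules, so these intervals and floors cover counting error only.

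Flii and Scin complete the family. Flii, at 83 ± 34.3 CPM in RAW_Mock, 98.9 ± 10.4 CPM in IBA and 158.99 ± 90 CPM in ASPC_Pre (SD, n = 3, 3 and 2), differed between RAW_Mock and the average of the other states by -0.93 ± 0.30 (adjusted p = 0.0316), under the fold threshold. The RAW_Mock sums, 48.5 to 117.06 CPM, overlapped those of IBA. Scin held 2 counts in 1 ASPC_Pre cell and 3 counts in 1 RAW_LPS cell and none in any other library, so it could not be tested anywhere. In the largest pool, scRNA-seq IBA, 0 counts allow a level of up to 0.0438 CPM.

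Of the monomer binders, Tmsb10 differed most. Its scRNA-seq RAW_Mock sums were 7.854, 6.066 and 6.438 CPM in batches 8_8, 9_1 and scRNA, and its IBA sums were 280.4, 383.9 and 91.3 CPM. ASPC_Pre gave 442.05 and 294.5 CPM. The groups lay far apart, with a log2 difference of -5.48 ± 0.49 (adjusted p = 4.48e-05). Tmsb10 was still counted in 72% of the scRNA-seq RAW_Mock cells. In Live-seq RAW_Mock ranged from 0.671 to 25.6 CPM and every IBA and ASPC_Pre sum from 52.46 CPM upward. The log2 difference was -5.02 ± 1.17 (adjusted p = 0.045), a call lost without batch 7, 8_8 or 9_4 (adjusted p = 0.153, 0.598 and 0.497), whereas the difference stayed between -5.40 and -4.18. With only the compared sums in the fit it was -5.30 and also missed the threshold (adjusted p = 0.0529).

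The other thymosin, Tmsb4x, separated the progenitors rather than the macrophages. Its scRNA-seq RAW_Mock sums were 487.2, 525.8 and 325.4 CPM and its IBA sums 363.3, 461.8 and 324.3 CPM, which overlapped, whereas ASPC_Pre measured 3153.9 and 2224.4 CPM. The log2 difference from the average of IBA and ASPC_Pre was -1.37 ± 0.20 (adjusted p = 0.000659) in scRNA-seq and -1.44 ± 0.51 (adjusted p = 0.18) in Live-seq. Pfn1 differed by 0.00 ± 0.25 in scRNA-seq, with a 95% interval of -0.55 to 0.56. Cfl1 differed by -0.56 ± 0.19 (adjusted p = 0.0353), short of the fold threshold. Profilin and cofilin thus stayed under the fold threshold between cell types that differed many-fold in Svil and Tmsb10.

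The next comparison set the preadipocyte line against the primary progenitors. In scRNA-seq, 2 of 8 members were lower in IBA, Tmsb4x and Capg, where 11.2% of all genes were called (3.69% higher and 7.47% lower). In Live-seq 1 of 8 was lower, Tmsb4x, where 0.0223% of all genes were called (0.00743% higher and 0.0149% lower). Tmsb4x differed by -2.95 ± 0.25 in scRNA-seq (adjusted p = 0.000752). In Live-seq its IBA sums were 156.3, 394.9 and 110.5 CPM in batches 7, 8_8 and 9_4 and its ASPC_Pre sums 6584.7 and 3502.4 CPM in 8_8 and 9_4. The lowest ASPC_Pre sum was well above the highest IBA sum, with a log2 difference of -4.86 ± 0.65 (adjusted p = 0.0457). That call was lost without batch 7, 8_8 or 9_4 (adjusted p = 0.202, 1 and 0.93, log2 differences of -4.74, -5.35 and -4.54), where 1, 0 and 0 genes were called over the whole table, beside 3 with all batches.

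Capg was lower in IBA by 1.05 on the log2 scale in scRNA-seq (log2 difference -1.05 ± 0.26, adjusted p = 0.0365). Its call was lost without batch 8_8 (adjusted p = 0.0689), 9_1 (0.22) or scRNA (0.112), and without the replicate block on batch (0.0871), so it rests on the full set of sums. The number of genes called over the table also fell from 1514 to 43 without batch 9_1 and to 440 without batch scRNA. Gsn differed by -1.25 ± 0.40 (adjusted p = 0.072) and passed in DESeq2 (adjusted p = 0.0207), in the fit new in edgeR 4 (0.0423) and without batch 8_8 (-1.66, adjusted p = 0.0433). Without batch 8_8 Flii passed too, at -1.51 (adjusted p = 0.0387), beside -1.04 with all batches (adjusted p = 0.0892). The members' median was -0.89 in scRNA-seq and -0.98 in Live-seq, beside -0.12 and 0.08 over all genes.

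**Figure D2:**
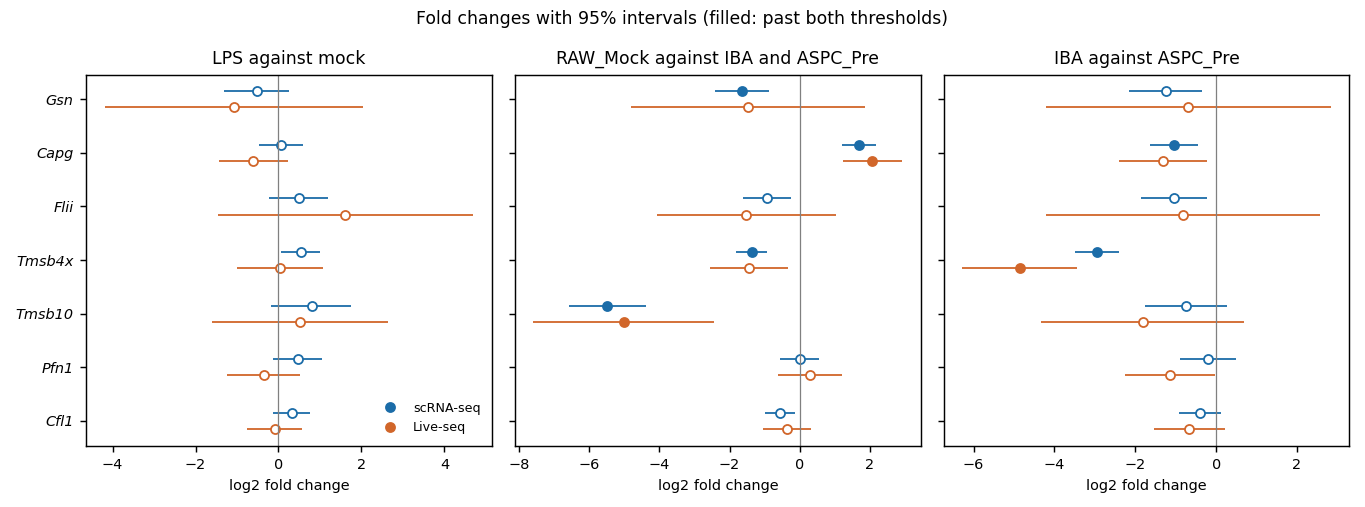
Log2 fold change (horizontal axis) of 7 members with 95% intervals for LPS against mock, RAW_Mock against IBA and ASPC_Pre, and IBA against ASPC_Pre, in scRNA-seq (blue) and Live-seq (orange). Filled points passed both thresholds: Gsn, Capg, Tmsb4x and Tmsb10 in the middle panel, Tmsb4x and Capg in the right panel, and none in the left. Svil is not drawn because RAW groups at or near 0 counts give no usable interval.

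Adipogenic induction was followed in ASPC. ASPC_Post had 1 sum per technique, so the comparison used both techniques in 1 fit. No member passed, and 0% of all genes did in edgeR (600 genes, 3 of them members, had an unadjusted p under 0.05, and DESeq2 called 0.73% of genes, Pfn1 among them with an adjusted p of 0.0453). Tmsb4x measured 3153.9 and 2224.4 CPM in the scRNA-seq ASPC_Pre sums and 705.5 CPM in ASPC_Post, and 6584.7 and 3502.4 CPM against 757.5 CPM in Live-seq. Pfn1 measured 2447.6 CPM in the scRNA-seq ASPC_Pre sum of batch 8_8 and 18198 of 24328870 counts in that of batch 9_1, against 362.1 CPM in ASPC_Post, and in Live-seq 2243.1 and 1407.6 CPM against 455.4 CPM in Live-seq. ASPC_Post lay below every ASPC_Pre sum for both genes under both techniques. With 1 ASPC_Post sum per technique, and no count of how many of all genes did the same, this order is only a description. The log2 differences were -1.93 ± 0.59 for Tmsb4x (adjusted p = 0.579) and -1.73 ± 0.49 for Pfn1 (adjusted p = 0.435).

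Gsn went the opposite way in value, at 2117 CPM in scRNA-seq ASPC_Post and 3437.7 CPM in Live-seq ASPC_Post. These values lay above every ASPC_Pre sum of either technique, likewise a description of 1 ASPC_Post sum per technique. How many of all genes did the same was not counted for Gsn either. Its log2 difference was 1.32 ± 1.03 (adjusted p = 1). When only the 6 ASPC sums entered the fit, 3 members were called, Tmsb4x, Pfn1 and Flii, among 1171 genes. The cytoplasmic actins, the substrate of all these proteins, also had low values in ASPC_Post, with log2 differences of -2.66 ± 0.43 for Actb (adjusted p = 0.0721) and -2.76 ± 0.51 for Actg1 (adjusted p = 0.0722).

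The labels pair 9 ASPC that were sampled by Live-seq before the cocktail and again after it. The genetic barcodes by which the study matched such samplings were not analysed here, and the study kept fewer pairs than the labels give. Tmsb4x was lower in the second sampling in 9 of 9 cells, with a median of 2504 CPM before and 396.3 CPM after. Pfn1 was lower in 9 of 9 cells (1289.2 and 463.7 CPM). Capg (717.5 and 348.1 CPM), Tmsb10 (285.8 and 129.4 CPM) and Cfl1 (1869.9 and 1196.9 CPM) were each lower in 8 of 9. Gsn was higher in 5 cells and lower in 4, with medians of 1446.2 and 1647.8 CPM. Flii was lower in 7 and higher in 1 (144.1 and 40 CPM). The monomer binders, Capg and Flii thus had lower values in most cells, whereas Gsn moved both ways between cells. How many of all genes were lower in as many cells was not counted, so the fall is not shown to be particular to these members. These cells belong to the ASPC_Pre and ASPC_Post sums above and are no separate evidence, and no test was run on them.

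**Figure D3:**
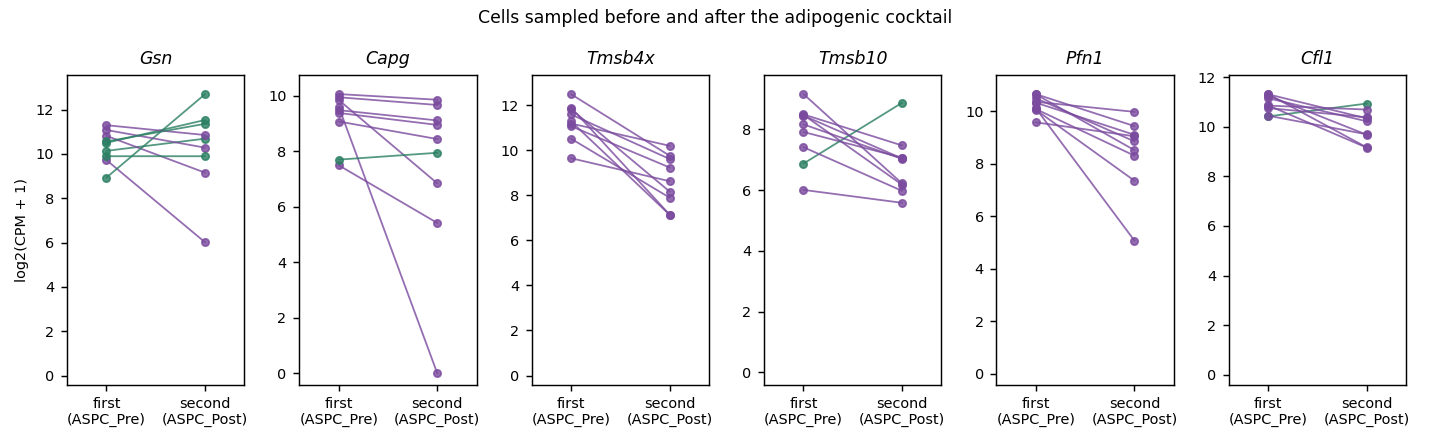
Level of 6 members as log2(CPM + 1) (vertical axis) in the first and second Live-seq sampling of the same 9 ASPC, joined by a line per cell (green, higher second; purple, lower second). Tmsb4x and Pfn1 lines go down in 9 of 9 cells, and Gsn lines go up in 5 and down in 4.

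LPS treatment was the study's fast state change, beside the slower one of adipogenesis. In scRNA-seq no member was called by edgeR or DESeq2 and 1 member, Tmsb4x, had an unadjusted p under 0.05, where 1.23% of all genes were called (0.922% higher and 0.31% lower), a share that was 0%, 0.135% and 0.0295% without batch 8_8, 9_1 and scRNA. In Live-seq edgeR called 0% of all genes (4% had an unadjusted p under 0.05 and DESeq2 called 4.77%), and no member reached an unadjusted p of 0.05 or a DESeq2 call. The response itself was present: 12 LPS-induced genes together made up 1.06% to 2.81% of the counts in RAW_LPS sums and 0.0423% to 0.505% in RAW_Mock sums.

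Gsn measured 340.97, 243.3 and 357.99 CPM in the scRNA-seq mock sums of batches 8_8, 9_1 and scRNA. It measured 185.5 and 284.02 CPM in the LPS sums of batches 8_8 and scRNA, and less in that of batch 9_1 (4162 of 29105847 counts). The LPS sum was the lower of the pair in 3 of 3 batches, while the ranges of both groups overlapped. The log2 difference was -0.53 ± 0.35 (95% interval -1.31 to 0.26, adjusted p = 0.565). In Live-seq the mock sums of batches 6, 7, 8_8 and 9_4 were 1275.2, 440.6, 322.4 and 292.7 CPM and the LPS sums 0, 173.8, 490 and 243.7 CPM. LPS was the lower in 3 of 4 batches, and the interval of the difference, -4.19 to 2.04, spanned most of the range measured (log2 difference -1.07 ± 1.42, adjusted p = 1). A single cell held 84.7% of the Gsn counts of mock batch 6.

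Beside Gsn, Nfkbia, which encodes an inhibitor of NF-kappaB induced by its own pathway, rose with LPS in scRNA-seq by 2.23 ± 0.37 on the log2 scale (adjusted p = 0.0317), a call lost without batch 8_8, 9_1 or scRNA (2.10, 2.11 and 2.53, adjusted p = 0.075, 0.12 and 0.127). Tnf, the cytokine whose promoter drives the reporter, had a difference of 3.39 ± 0.88 (adjusted p = 0.116), and of 3.63 ± 0.46 in Live-seq (adjusted p = 0.199). Since edgeR called Tnf in neither technique, a member that missed the threshold is not shown to be without a response. Tmsb4x differed by 0.54 ± 0.21 (adjusted p = 0.282), Pfn1 by 0.46 ± 0.27 (adjusted p = 0.488) and Capg by 0.06 ± 0.23 (adjusted p = 1) in scRNA-seq. The Live-seq differences of these genes were 0.03 ± 0.48, -0.36 ± 0.40 and -0.61 ± 0.38, each with an adjusted p of 1, beside a median of -0.48 over all genes. In Live-seq the direction of Tmsb4x and Pfn1 depended on single batches, since Tmsb4x was -0.41 without batch 7 and Pfn1 was 0.09 without batch 6. The difference of the LPS response between techniques was called for 0 members and 0% of all genes by edgeR (4.92% of genes and no member had an unadjusted p under 0.05, and DESeq2 called 2.88% of genes and no member).

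The study related a macrophage's transcriptome before LPS to its later reporter response, so the spread of Gsn between mock-treated RAW-G9 cells was examined within each batch. The fluorescence of single cells was not analysed here. In scRNA-seq Gsn was counted in 16 of 16, 45 of 46 and 95 of 95 cells of batches 8_8, 9_1 and scRNA, with medians of 323.3, 215.3 and 353.97 CPM. The cells ran from 124.8 to 564.6 CPM in batch 8_8, from 0 to 740.6 CPM in batch 9_1 and from 22.4 to 864.5 CPM in batch scRNA. The 90th percentile was 3.31, 8.09 and 4.83 times the 10th, so high and low cells of 1 clone in 1 batch lay several-fold apart in these values. Counts were not unique molecules, and the technical part of this spread was not measured.

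The coefficient of variation of Gsn was 46.3%, 67.5% and 51% in these batches. Over the same cells it was 13.6% to 26.6% for Cfl1, 15% to 50.4% for Pfn1 and 30.3% to 38.1% for Capg, all below that of Gsn within each batch, and 48% to 96% for Tmsb4x, above or just below it. Flii (80.5% to 95.9%) and Tmsb10 (79.3% to 109.45%), which have the fewest counts of these members, lay above Gsn in every batch. Genes with fewer counts vary more by counting alone, so these values describe the members and were not tested. Thinning every cell to 50000 kept counts gave 43.7%, 72.6% and 52.4% for Gsn. After LPS the coefficients were 79.2%, 76.1% and 69% and the medians 163.6, 129.7 and 218.7 CPM.

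In Live-seq Gsn was counted in 3 of 8, 10 of 20, 36 of 63 and 7 of 12 mock-treated cells of batches 6, 7, 8_8 and 9_4. These shares were 37.5% (exact 95% interval 8.52 to 75.5), 50% (27.2 to 72.8), 57.1% (44 to 69.5) and 58.3% (27.7 to 84.8). The intervals overlapped throughout, and the highest cell reached 4701.7 CPM. Capg, by contrast, was counted in 88.9% to 100% of the cells of each of these batches. Gsn was counted in 78.6% to 100% of Live-seq IBA cells per batch, above the share in each of the macrophage batches. A cytoplasmic sample without a Gsn count does not show that the cell lacked the transcript.

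**Figure D4:**
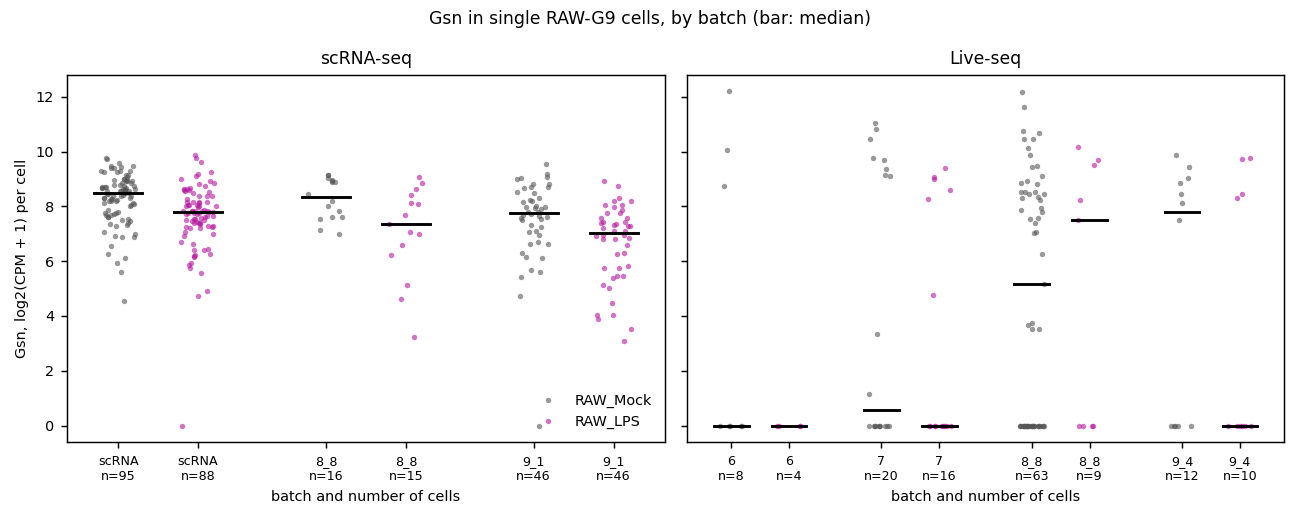
Gsn as log2(CPM + 1) (vertical axis) in single RAW-G9 cells, 1 point per cell, by batch (horizontal axis, with the number of cells) for mock (grey) and LPS (magenta), in scRNA-seq on the left and Live-seq on the right; black bars are medians. Whole-cell medians lie between 129.7 and 353.97 CPM, and many Live-seq cells are at 0.

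Within batches of whole-cell libraries, Pearson's r of Gsn with other members changed with the batch. It ran from -0.127 to 0.43 for Capg, -0.441 to 0.0748 for Flii, -0.0328 to 0.599 for Tmsb10, -0.353 to 0.0133 for Pfn1 and -0.192 to 0.342 for Cfl1, and the coefficient largest in size came from batch 8_8, of 16 cells, for each of these but Pfn1. The r with Tnf over the mock-treated cells was 0.225, 0.0996 and -0.12 in batches 8_8, 9_1 and scRNA (16, 46 and 95 cells), and r with Nfkbia ran from -0.0953 to 0.12. In Live-seq r with Tnf was 0.659, 0.0602, 0.206 and 0.185 in batches 6, 7, 8_8 and 9_4 (8, 20, 63 and 12 cells). Spearman's rho with Tnf was 0.643, 0.135, 0.176 and -0.102 there. Gsn also correlated with the number of genes counted in the same Live-seq cells (r from 0.305 to 0.576), and the part of depth in its relations to Tnf and Tmsb4x was not tested. With Tmsb4x, r was negative in all 3 scRNA-seq batches (-0.223 to -0.143) and positive in all 4 Live-seq batches (0.231 to 0.441). Spearman's rho with Tmsb4x kept these signs but was 0.0534 in Live-seq batch 8_8, of 63 cells, and 0.131 in 9_4. Many of these Live-seq cells had no Gsn count. These coefficients are over log2(CPM + 1) of cells that share a library preparation and depth range, and are given as descriptions.

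The labels also pair 4 RAW cells sampled before and after LPS, of which 1 pair carries the same extraction number on both samples and was ordered by its treatment label. Gsn was counted in 2 of the 4 mock samplings and in none of the 4 LPS samplings, which at these shares of cells with a count is too few to give a direction.

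The techniques were then compared at matched states. No member was called (0 also at an unadjusted p under 0.05 in edgeR, and 0 in DESeq2), where 0.501% of all genes were, all 68 of them lower in Live-seq, a share that ran from 0.214% to 0.9% when single batches were left out. The largest member difference was that of Gsn, 0.63 ± 0.43 on the log2 scale, beside a median of -0.34 over all genes. The intervals of Capg (-0.33 to 0.52), Pfn1 (-0.49 to 0.40) and Cfl1 (-0.24 to 0.40) stayed within 0.52 of no difference. Batch was no term in this fit and sums of 1 batch counted as independent. The intervals may therefore be too narrow and do not show that the techniques were equal. The sign of 7 members other than Gsn turned under at least 1 alternative. The share of cells with a count was the visible contrast: Gsn was counted in 54.4% of Live-seq and 99.4% of scRNA-seq RAW_Mock cells.

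Live-seq sampling of IBA cells had 1 batch, so values are given without a test, with exact Poisson intervals for counting error only. At 0, 1 and 4 h (70, 49 and 43 cells) Tmsb4x measured 795.8, 1205.4 and 776.4 CPM, with an interval of 1190.9 to 1220.1 at 1 h. Gsn measured 325.4, 253.2 and 313.4 CPM. The value at 1 h was the highest of the 3 for Tmsb4x and the lowest for Gsn, and in both genes the interquartile ranges of the cells overlapped between times (Tmsb4x 416.4 to 1166.4 CPM at 0 h and 620.9 to 1561.2 CPM at 1 h). Tmsb10 stayed between 393.7 and 410 CPM, Capg between 256.5 and 281.7 CPM, Pfn1 between 1599.1 and 1791.9 CPM and Cfl1 between 2391.2 and 2648.1 CPM.

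Of a list of 44 other actin regulators, 40 were tested beside the members, among them other cofilins and profilins, the Arp2/3 complex, formins, capping protein, coronins and tropomodulins. In scRNA-seq 5 were higher and 15 lower in RAW_Mock than in IBA and ASPC_Pre (12.9% and 25% of all genes were), with a median of -0.52 beside -0.21 over all genes. Those near or at 0 in RAW_Mock were the filament-end proteins Lmod1 (14.9 CPM on average in IBA and ASPC_Pre and no count in RAW_Mock, missed by DESeq2 with an adjusted p of 0.0507) and Tmod2 (28.9 and 0.00971 CPM), the cyclase-associated protein Cap2 (8.61 CPM and no count) and the gelsolin relative Vill (2.69 CPM and no count), whose call was lost without batch 9_1 (adjusted p = 1). These genes could not pass the count filter through RAW_Mock and entered through another state. They could therefore only add to the count of lower genes. In Live-seq 2 were higher, the leukocyte coronin Coro1a (9.54 ± 1.51, adjusted p = 0.00547) and the leukocyte formin Fmnl1 (9.48 ± 1.35, adjusted p = 0.00277). Another 3 were lower there, led by Pfn2, another profilin (-9.39 ± 1.61, adjusted p = 0.0192). The Live-seq calls of Coro1a, Fmnl1 and Pfn2 were lost without batch 8_8 (adjusted p = 0.282, 0.14 and 0.262), that of Pfn2 also without batch 7 (0.0593), and those of Fmnl1 and Pfn2 without batch 9_4 (0.0549 and 0.431). Pfn1 was not called between these cell types, whereas Pfn2 averaged 220.3 CPM in scRNA-seq IBA and ASPC_Pre and 1.91 CPM in RAW_Mock.

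Between IBA and ASPC_Pre in scRNA-seq, 1 of the 40 was higher and 7 were lower (3.69% and 7.47% of all genes were), and the largest differences were those of Lmod1, Cap2 and the capping subunit Capzb (-2.65 ± 0.21, adjusted p = 0.000752). Lmod1 lost its call without batch 9_1 (adjusted p = 0.172) and Cap2 without 8_8, 9_1 or scRNA (0.0606, 0.178 and 0.0533). For LPS in scRNA-seq 1 of the 40 was called (1.23% of all genes were), Actg1 (cytoplasmic gamma actin), which averaged 551.3 CPM in RAW_LPS and 220.2 CPM in RAW_Mock, a log2 difference of 1.46 ± 0.20 (adjusted p = 0.0184). That call was lost without batch 8_8, 9_1 or scRNA (1.41, 1.61 and 1.38, adjusted p = 0.0981, 0.0605 and 0.201) and without the replicate block (0.107). Its Live-seq difference was 1.24 ± 0.46 (adjusted p = 1). None of the 40 was called for LPS in Live-seq, IBA against ASPC_Pre in Live-seq, ASPC_Post or technique by edgeR.

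Many actin genes carry a CArG box, the site bound by serum response factor, so promoter windows were searched for it on both strands (RefSeq, GRCm38.p6, 250 bases before to 50 after a start). The window of Actg1, called for LPS with all batches but not with any 1 of them left out, held one, shown with its box in capitals at 11:120348566-120348595 on the minus strand.
Actg1: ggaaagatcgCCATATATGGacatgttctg
None of the 8 members with a window held one, nor need a window of this length show a distant site. Of the 39 other actin regulators with a window, 3 did (7.69%), as did 1.81% of all 27025 genes. A match is a description of letters and not of binding.

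The genes most like each of 2 members over the 12 scRNA-seq sums were found by Pearson's r of log2(CPM + 1) among 13563 genes. For Gsn they were Smad3, a transducer of TGF-beta signals (r = 0.982), Tmem106b, a lysosomal membrane protein (0.965) and Snx33, a sorting nexin (0.958). Smad3 averaged 13.7 CPM in RAW_Mock, 22.6 CPM in IBA, 72.5 CPM in ASPC_Pre and 117.9 CPM in ASPC_Post, the same order of states as Gsn. For Capg they were 2010111I01Rik (0.967), Dph7 (0.966) and Raet1e, a ligand of a natural killer cell receptor (0.963). The sums share batches and fall into 5 states, and these values are given as a description.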

How the data were processed

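Read 1 (75 bases) was aligned by the authors with STAR 2.6.1c to GRCm38, HTSeq assigned them to Ensembl genes ignoring strand, and the counts of all 1012 cells were deposited raw, in 1 table without unique molecular identifiers. The table was used as deposited, with no identical columns. The 20 genes the study found in negative controls and 91 genes of ribosomal proteins were removed, a median of 24.1% of a Live-seq and 24.7% of a scRNA-seq library, and CPM scales a sum to 1000000 kept counts.

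Counts were summed per technique, state and batch (15 Live-seq and 12 scRNA-seq sums of at least 3 cells) and fitted with edgeR 4.0.16 in R 4.3.3 (TMM, glmQLFit in its legacy form, glmQLFTest), with batch as a block (not between techniques, which share only batch 8_8), and p-values were adjusted by Benjamini and Hochberg over all genes tested. Genes entered with at least 2 counts in 15% of the cells of 1 scRNA-seq state, then filterByExpr (minimum count 2, minimum proportion 0.05). States of a technique shared 1 fit. Batch 5Reseq holds 1 mock-treated cell, too few for a sum, so it adds nothing to the LPS difference. As a check of pairing, deviations of mock and LPS sums of 1 batch correlated at 0.287, 0.459 and 0.522 in scRNA-seq and at 0.00234 to 0.235 in Live-seq; the labels make the batch, which holds both groups.

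Named genes were the members, the called other regulators with the 3 largest differences per comparison, the 3 genes most like Gsn and Capg, and Tnf and Nfkbia. Actb and Actg1 in ASPC_Post and Pfn2 as a foil to Pfn1 were chosen after their values were seen. The members, lists and tests were chosen with earlier results of these data known. Alternatives were DESeq2 1.42.0, the edgeR 4 fit, RLE scaling, no filter, no block, only the sums compared, kept genes, and each batch left out. The test script was checked on simulated data. Near copies were found with blastn 2.17.0.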

Additional observations from a re-analysis of the deposited data

Results flagged for a closer look

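In the Live-seq RAW_LPS sums, the wild-type batch 5Reseq stood apart from the 4 RAW-G9 batches for 3 genes. Tmsb10 was 43.1 CPM there and at most 15.4 CPM in the others, Svil was 10.4 CPM and 0 in the others, all from 1 cell with 54 counts, and Scin was 0.578 CPM and 0 in the others. In the Live-seq RAW_Mock sums, Gsn of batch 6 (1275.2 CPM, the next 440.6 CPM) stood apart, with 84.7% of its counts in 1 cell. Of 16 groups, 4 were picked out by the gap between the extreme sum and its nearest neighbour. The rule picks out about 1 in 20 groups of normally spread values. For Svil and Scin every other sum was 0, so any count in 1 sum would be picked out and that rate does not apply.

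The single wild-type mock-treated Live-seq cell entered no sum. It held 3318.5 CPM of Tmsb4x, where the highest RAW-G9 mock cell held 1748.3 CPM, 758.85 CPM of Tmsb10 (184.9 CPM) and 4335.05 CPM of Pfn1 (4314.7 CPM), and no count of Gsn or Capg in 1071 genes counted.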

How the results depend on the processing

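The number of members called changed in 21 alternative fits. For RAW_Mock against IBA and ASPC_Pre it was 4 without batch 9_1 in scRNA-seq, and in Live-seq it was 3 in DESeq2, 1 with no filter and with the left-out genes kept, and 0 to 2 with a batch left out. With only the sums compared it was still 2 there, but Gsn took the place of Tmsb10. For IBA against ASPC_Pre in scRNA-seq it was 3 in DESeq2 and in the edgeR 4 fit, 1 without the replicate block, with only the sums compared and with the left-out genes kept (Capg at -0.96), and 1 to 3 with a batch left out, and in Live-seq it was 0 with the left-out genes kept (Tmsb4x, adjusted p = 0.0559) and 0 to 1 with a batch left out. For ASPC_Post it was 1 in DESeq2 and 3 with only the sums compared. The block on batch changed no other member's call. The causes were not tested.

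The number of genes called over the whole table, or its share of the genes tested, moved by over 1.5 times in these fits. LPS in scRNA-seq went from 1.23% to 3.02% (edgeR 4 fit), 5.26% (DESeq2), 0.896% (no filter, over more genes), 0.258% (no block), 4.36% (only the sums compared) and 0% to 0.135% with a batch left out, and in Live-seq from 0% to 4.77% (DESeq2) and 0.00414% (no filter). RAW_Mock against IBA and ASPC_Pre went from 38% to 19.4% (no filter) in scRNA-seq, and in Live-seq from 2.88% to 7.58% (edgeR 4 fit), 13.4% (DESeq2), 6.28% (no block) and 0.179% to 3.77% with a batch left out. IBA against ASPC_Pre went from 11.2% to 19.4% (edgeR 4 fit), 7% (no block), 5.42% (only the sums compared), 5.1% (no filter) and 0.322% to 11.3% with a batch left out in scRNA-seq, and from 0.0223% to 0.0594% (edgeR 4 fit), 2.05% (DESeq2), 0.0538% (no filter), 0.0817% (no block), 0.132% (only the sums compared) and 0% to 0.0223% with a batch left out in Live-seq. ASPC_Post went from 0% to 0.214% (edgeR 4 fit), 0.73% (DESeq2), 0.0664% (RLE), 0.0103% (no filter), 0.022% (left-out genes kept), 8.94% (only the sums compared) and 0% to 0.0958% with a batch left out. Technique went from 0.501% to 2.79% (no filter) and 0% (only batch 8_8), and the difference of LPS responses from 0% to 2.88% (DESeq2) and 0% to 0.221% with a batch left out.

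The sign turned for 48 of 870 alternative log2 differences, none of them for a called difference. For LPS in Live-seq Svil was 0.97 in DESeq2 and 7.15 without the block. For IBA against ASPC_Pre in scRNA-seq with only the sums compared, Svil was 0.07 and Pfn1 0.01. For technique, Tmsb10 was -0.06 in the edgeR 4 fit, Svil was 0.22, Tmsb4x 0.02 and Pfn1 0.11 in DESeq2, Svil was 0.11, Tmsb4x 0.02 and Pfn1 0.11 with RLE, Svil was 0.01 with no filter, Svil was 0.06 and Pfn1 0.08 with the left-out genes kept, and Capg was -0.31, Tmsb4x 0.42 and Cfl1 -0.11 in batch 8_8 alone. For the difference of LPS responses Tmsb10 was 0.16 without the block.

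With a batch left out, the log2 differences that turned ran as follows. For LPS, Capg ran from -0.13 to 0.27 in scRNA-seq, and in Live-seq Tmsb4x from -0.41 to 0.58, Tmsb10 from -0.09 to 1.14, Pfn1 from -0.68 to 0.09 and Cfl1 from -0.27 to 0.17. For IBA against ASPC_Pre in scRNA-seq Svil ran from -0.48 to 0.06 and Pfn1 from -0.74 to 0.50. For ASPC_Post Svil ran from -0.27 to 0.86. For technique Capg ran from -0.02 to 0.40, Svil from -1.13 to 0.80, Flii from -0.12 to 0.45, Tmsb4x from -0.41 to 0.15, Tmsb10 from -0.09 to 0.53 and Pfn1 from -0.18 to 0.24. For the difference of LPS responses Gsn ran from -1.58 to 0.47, Svil from -0.60 to 2.80, Tmsb4x from -0.96 to 0.02 and Tmsb10 from -0.80 to 0.32. All 21 alternative shares of cells and all 21 coefficients of variation of Gsn stayed within their interval or spread, whereas 58 alternative levels moved beyond it.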
